A study of Mus musculus with 62 samples.

Results

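The genes described here encode the amyloid precursor protein family, the secretases that cut it and the peptidases that degrade amyloid beta. They are App, Aplp1 and Aplp2, the secretase genes Bace1, Psen2, Ncstn and Adam10, and the peptidase genes Ide and Mme, which are 9 of the 53975 genes listed. They were chosen by gene name, and their levels were read from long-RNA libraries of mouse hippocampus (17 libraries) and of HT-22 cells (14 libraries), out of 62 libraries in the series. The mice carried the App allele NL-G-F (called APP below) or were C57BL/6J (called WT), and their ages were 3 months (3 APP and 2 WT mice), 6 months (3 and 3) and 12 months (3 and 3). NL-G-F is a knock-in, in which the mouse App gene itself carries a humanised amyloid beta segment with the Swedish, Arctic and Iberian mutations, so the allele is driven by the App promoter in every cell that uses it. The left and right hippocampus of each mouse were pooled. HT-22 is an established mouse hippocampal line, used at passage 4. All HT-22 cells first received a locked nucleic acid oligonucleotide (LNA) for 24 h, directed at Hsf1 (150 nM) or scrambled (50 uM as the labels give it), and then 30 uM of peptide dissolved in DMSO. That peptide was amyloid beta 1-42 (Ab42) or the same residues in reverse order. The 4 HT-22 groups were reverse peptide with scramble (4 libraries), Ab42 with scramble (4), reverse peptide with anti-Hsf1 (3) and Ab42 with anti-Hsf1 (3).

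App encodes a membrane protein that can be cut along competing routes. Adam10, the main alpha-secretase of neurons, cuts inside the amyloid beta segment, while Bace1, the beta-secretase, cuts at its start and is the committing step of amyloid beta production. The gamma-secretase complex, in which presenilins such as Psen2 hold the catalytic site and Ncstn (nicastrin) is the large glycoprotein subunit, then cuts within the membrane. Aplp1 and Aplp2 are the App paralogs, cut by many of the same enzymes but without an amyloid beta segment. Ide (insulin-degrading enzyme) and Mme (neprilysin) are zinc peptidases that degrade amyloid beta and other small peptides.

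The App coding sequence that the NL-G-F allele alters is shown because the mouse groups are named for it, while the gene-level values below do not tell its alleles apart. It is the wild-type mouse sequence from the beta-secretase site past the gamma-secretase sites, in exons 16 and 17 of the transcript App-206 on GRCm38, and the capitals mark the 4 codons that the Swedish, Arctic and Iberian mutations replace. The codons changed only to humanise the segment are not marked. Both stretches are printed 5′ to 3′ on the coding (minus) strand, at chr16:84965670-84965726 and chr16:84962785-84962868, and 5 of 6 coding transcripts of App hold them.
App exon 16: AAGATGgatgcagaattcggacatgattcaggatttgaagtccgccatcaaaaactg
App exon 17: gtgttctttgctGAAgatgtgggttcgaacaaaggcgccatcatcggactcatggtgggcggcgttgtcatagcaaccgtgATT

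On GRCm38, App (ENSMUSG00000022892) lies on chromosome 16 from 84949685 to 85173766, Aplp1 (ENSMUSG00000006651) on chromosome 7 from 30434982 to 30445535, and Aplp2 (ENSMUSG00000031996) on chromosome 9 from 31149557 to 31211815. Bace1 (ENSMUSG00000032086) lies on chromosome 9 from 45838580 to 45864399 and Adam10 (ENSMUSG00000054693) on chromosome 9 from 70678997 to 70780229. Both gamma-secretase genes lie on chromosome 1, Psen2 (ENSMUSG00000010609) from 180227004 to 180263438 and Ncstn (ENSMUSG00000003458) from 172066013 to 172082795. Ide (ENSMUSG00000056999) lies on chromosome 19 from 37268743 to 37337852 and Mme (ENSMUSG00000027820) on chromosome 3 from 63241537 to 63386030. App, Bace1, Psen2 and Ncstn overlap genes on the other strand, and Ide holds the pseudogene Rpl10-ps6 on its own strand. Whether the counting used strand is not stated, so reads from stretches shared by genes of opposite strands may not have been told apart. Strand would not separate reads of Ide and Rpl10-ps6.

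Levels are given in TPM, transcript abundances corrected for gene length that sum to nearly the same total in each library. Between APP and WT mice at 6 months, and between HT-22 cells given Ab42 with anti-Hsf1 and the other HT-22 groups, most genes shifted together in TPM. Each value was therefore also divided by a library factor, the median over genes of its ratio to the geometric mean, and is called scaled TPM. That factor was 1.118 to 1.459 in APP mice at 6 months against 0.688 to 0.836 in WT mice at 6 months, and 0.639 to 0.855 in HT-22 cells given Ab42 with anti-Hsf1 against 0.995 to 1.23 in the other HT-22 libraries. The ratio of coverage to FPKM, a measure of relative depth, had a range of 1.42 to 3.04 over the hippocampus libraries and 0.72 to 2.6 over the HT-22 libraries, and the number of reads behind a value is unknown.

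Some libraries stood apart or differed in ways the group names do not give. All APP mice and the WT mice of 3 months had 74.8 to 200.6 TPM of Xist, whereas the WT mice of 6 and 12 months had 0.215 to 0.438 TPM of Xist and 19.3 to 23.4 TPM of Ddx3y. Genotype at 6 and 12 months, and age in WT mice, therefore cannot be told apart from the sex that these transcripts mark. The same holds for the genotype by age interaction, which sets the genotype change at 6 and 12 months against that at 3 months. The APP library of 3 months with replicate number 1 was the highest of the 17 in summed oligodendrocyte (2953 TPM), choroid plexus (2588) and striatum (276.8) markers. The striatal receptor gene Drd1 was at 17.4 TPM in it and at 1.69 to 4.46 TPM in the other hippocampus libraries. In HT-22, the Ab42 and scramble libraries 3 and 4 and the reverse peptide and scramble library 4 loaded at 0.491 to 0.519 on a first component that held 46.3% of the variance, against -0.201 to -0.082 for the other 11. They had 40.7 to 75.1 TPM of the immediate-early gene Fos, where the others had 2.23 to 7.79. In bulk tissue, fewer cells of a type and less RNA per cell cannot be told apart.

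In hippocampus the App family stood far above its enzymes. Mean TPM over the 17 libraries was 323.1 ± 62.2 (SD) for Aplp1, 272.5 ± 76.3 for App and 242.3 ± 70.6 for Aplp2. These neighbours differed by less than their spread between libraries, while within a library Aplp1 was above App in 15 of 17 and App above Aplp2 in 11. Adam10 followed at 30.6 ± 6.94, then Bace1 at 23.8 ± 5.89, Ide at 23.2 ± 10.6 and Ncstn at 19.9 ± 4.08, again with each step smaller than the spread. Within a library Adam10 was above Bace1 in 16 of 17, Bace1 above Ide in 10 and Ide above Ncstn in 10. Psen2 was lower, at 6.60 ± 2.45, and Mme lowest, at 2.83 ± 1.19. Psen2 was below Ncstn in all 17 libraries, and Mme was below Psen2 in 16 of 17. After scaling, Adam10 and Aplp1 were the steadiest, with the highest library 1.28 and 1.3 times the lowest, and Mme the least steady, at 4.96 times.

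**Figure D1:**
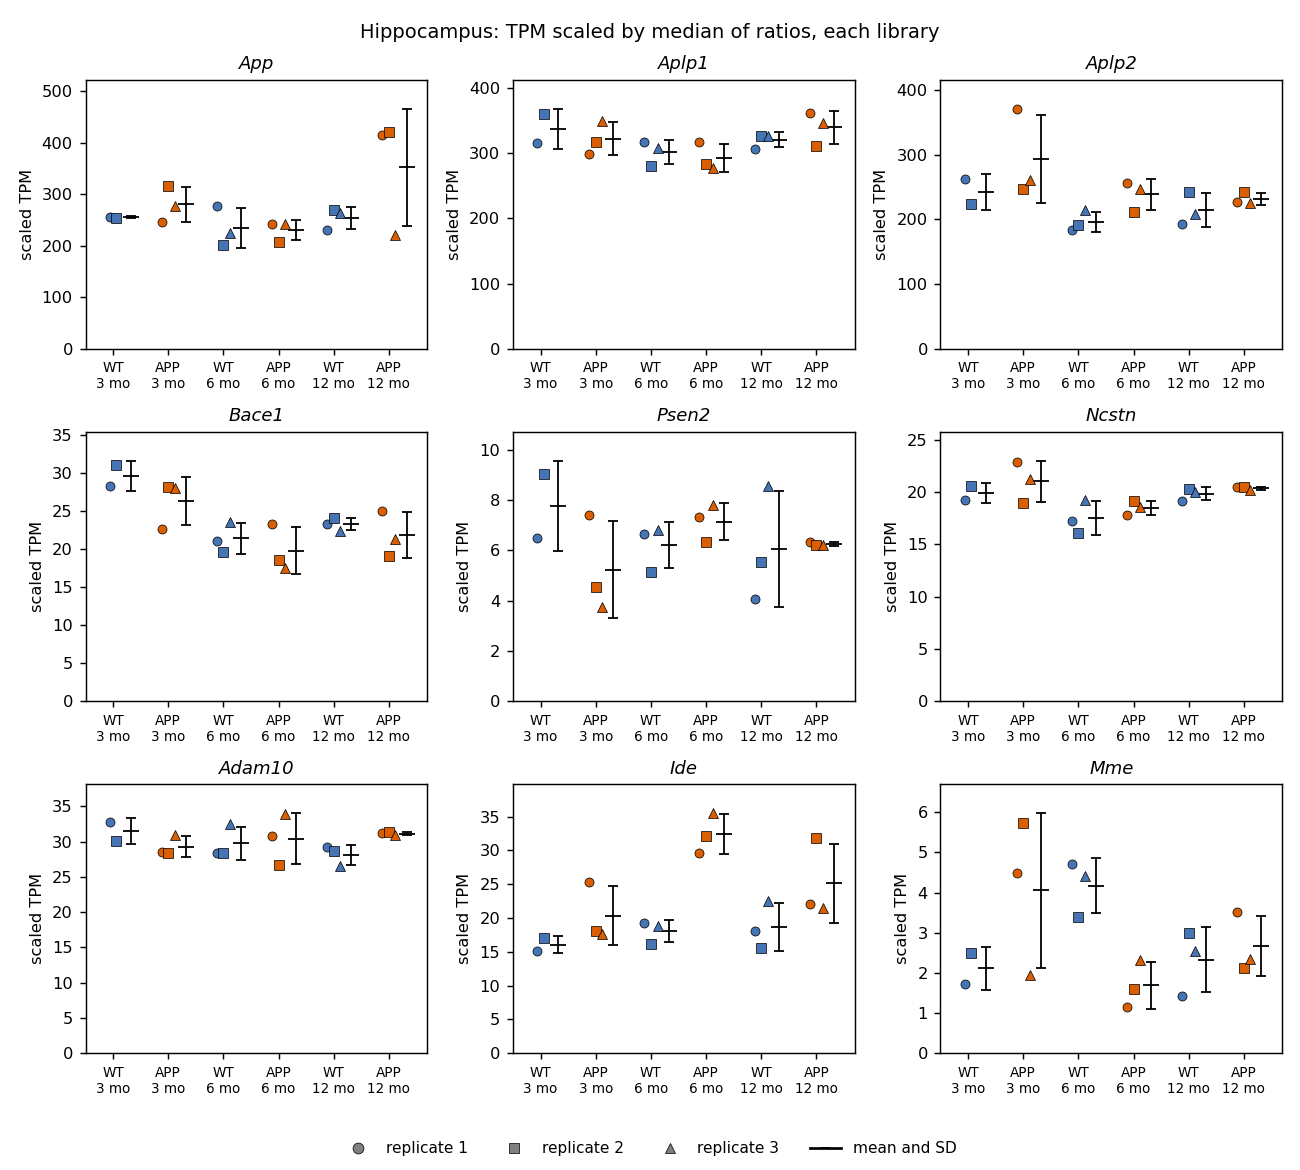
Scaled TPM (vertical axis, from 0) of each of the 9 genes in every hippocampus library, by genotype and age, with orange points for APP, blue points for WT and black bars for the mean and SD of a group. The 3 APP libraries of 6 months sit above all WT libraries of 6 months for Ide and below them for Mme, and 2 of 3 APP libraries of 12 months are the highest for App.

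The first comparison set APP against WT mice at each age, stages that the series design describes as before symptoms, at the onset of plaques and symptoms, and terminal. Of the 9 genes, Ide alone was called, as higher in APP mice at 6 months. All changes are on the log2(scaled TPM + 1) scale, which understates changes of low genes, and a gene was called at a limma p adjusted over all 17840 tested genes below 0.05. The count was 0 of 9 at 3 months, where 0.303% of all genes were called, 1 of 9 at 6 months (1.66% of all genes) and 0 of 9 at 12 months (0.443%). The median change of the 9 genes was 0.07, 0.03 and 0.11 at 3, 6 and 12 months, and that of all genes was 0.00, 0.00 and 0.00 after rounding. Libraries of the genotypes did not overlap in 2 of 9 genes at 3 months (27.1% of all genes), 2 of 9 at 6 months (21.2%) and 1 of 9 at 12 months (15.6%).

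The App family itself did not differ by genotype beyond the spread at any age. Scaled TPM of App at 3 months was 247, 316 and 278 in APP mice and 257 and 254 in WT mice. At 6 months it was 242.1, 207 and 242.0 in APP and 278, 201 and 225 in WT mice, and the change was -0.02 ± 0.20 (SE). At 12 months App was at 415, 421 and 221 in APP mice against 230.0, 269 and 264 in WT mice. APP replicates 1 and 2 were thus above every other hippocampus library, and replicate 3 was below all WT mice of that age. The change at 12 months was 0.41 ± 0.20 (limma adjusted p = 0.739), and 0.72 with an adjusted p of 0.0802 without APP replicate 3. It was 0.27 without APP replicate 1 and 0.26 without APP replicate 2.

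Aplp1 stayed between 278 and 362 scaled TPM in all 17 libraries, and its groups overlapped at every age. Aplp2 ran from 184 to 262, except for 371 in the APP library of 3 months that was high in striatum, choroid plexus and oligodendrocyte markers. At 3 months the Aplp2 change was 0.25 ± 0.16 (limma adjusted p = 0.558), and 0.07 without that library. The part of those cell types in its Aplp2 level was not tested. At 6 months Aplp2 was at 256, 212 and 247 in APP and 184, 191 and 214 in WT mice, a change of 0.28 ± 0.15 (limma adjusted p = 0.361), and at 12 months the change was 0.11 ± 0.15. App made up 26.9% to 43.2% of the summed TPM of the 3 family members over the APP mice and 29.9% to 35.7% over the WT mice. That percentage was 1.48 points higher in APP mice on average within ages, which is smaller than the spread (two-sided exact permutation test within age, p = 0.463, adjusted over 7 ratio tests 0.588).

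None of the secretase genes was called at any age. Bace1 was at 22.7 to 28.2 scaled TPM in APP mice of 3 months, just below the 28.3 and 31.1 of WT mice, and the groups overlapped at 6 months (17.5 to 23.4 and 19.6 to 23.6) and at 12 months (19.1 to 25.1 and 22.4 to 24.1). Adam10 held 26.5 to 33.8 in all mice. At 12 months the 3 APP mice were at 31.2, 31.3 and 30.9 and the WT mice at 29.2, 28.7 and 26.5, without overlap, for a change of 0.14 ± 0.10 (limma adjusted p = 0.874). Ncstn was at 17.8 to 22.9 in APP and 16.1 to 20.6 in WT mice.

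Psen2, a low gene, varied more within groups. It was at 7.41, 4.52 and 3.75 scaled TPM in APP mice of 3 months and 6.48 and 9.04 in WT mice, a change of -0.52 ± 0.26 (limma adjusted p = 0.403), and between -0.31 (without WT replicate 2) and -0.76 (without APP replicate 1) when 1 library was left out. At 6 months the change was 0.18 ± 0.23, with 6.32 to 7.81 in APP and 5.14 to 6.80 in WT mice. At 12 months the APP mice were nearly equal (6.20 to 6.33) and the WT mice spread from 4.05 to 8.57.

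The balance of the alpha- and beta-secretase genes was read as the log2 ratio of Adam10 to Bace1 within each library, which scaling does not touch. It was 0.16 ± 0.16 in APP and 0.08 ± 0.18 in WT mice at 3 months, 0.62 ± 0.29 and 0.47 ± 0.05 at 6 months, and 0.52 ± 0.20 and 0.27 ± 0.04 at 12 months (SD, n = 3, and 2 for WT at 3 months). The ratio was 0.16 higher in APP mice on average within ages. This did not pass the two-sided exact permutation test (p = 0.072, adjusted over 7 ratio tests 0.252).

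Ide was higher in APP mice at 6 months. Its scaled TPM was 29.6, 32.2 and 35.5 in the 3 APP mice and 19.2, 16.2 and 18.9 in the 3 WT mice, so the lowest APP mouse was above the highest WT mouse. The change was 0.81 ± 0.17 (limma adjusted p = 0.0326), with means of 32.4 ± 2.97 and 18.1 ± 1.67 (SD, n = 3 each). In TPM as deposited the mice were at 36.2, 36.0 and 51.8 against 13.2, 12.6 and 15.8, a change of 1.49 ± 0.23 against a median of 0.60 for all genes.

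The call of Ide was near its threshold. The adjusted p rose to 0.103 when APP replicate 2 was left out and to 0.117 when APP replicate 3 was. Leaving out WT replicate 1, 2 or 3 gave 0.0812, 0.0943 and 0.0515, while the change stayed between 0.73 and 0.87 in these fits and in that without APP replicate 1 (adjusted p = 0.0415). It was also lost, at 0.0727, with no filter on low genes and, at 0.0563, with only the 2 groups in the fit.

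At the other ages the mean of Ide was higher in APP mice, but Ide was not called. At 3 months it was at 25.4, 18.0 and 17.7 scaled TPM in APP and 15.2 and 17 in WT mice, without overlap, for a change of 0.31 ± 0.19 (limma adjusted p = 0.536). Without the APP library high in striatum and choroid plexus markers, which had the 25.4, the change was 0.15. At 12 months it was at 22.1, 31.9 and 21.5 in APP and 18.0, 15.6 and 22.5 in WT mice, a change of 0.40 ± 0.17 (limma adjusted p = 0.628), and 0.23 without APP replicate 2. The genotype by age interaction of Ide was not called (limma F test, adjusted p = 0.463), and it cannot be told apart from sex in these mice.

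Values that moved with Ide at 6 months are given here, and their part in the result was not tested. Among all genes, the change at 6 months rose with exon length, from a median of -0.15 in the shortest of 5 equal classes to 0.09 in the longest. Of the longest class, which holds Ide (7506 exonic bases), App and Mme, 34 genes were called higher and 4 lower. Among the shortest genes 5 were called higher and 152 lower. App (12996 exonic bases) and Mme (11542) were at changes of -0.02 and -0.96. Of the marker lists, choroid plexus markers (8 genes) summed to 39.3 to 917 scaled TPM in APP and 1146 to 1368 in WT mice of 6 months, and hippocampal subfield markers (7 genes) to 134 to 153 and 103 to 120. Both lists thus separated the genotypes at 6 months, as Ide and Mme did, with all their markers above 1 TPM. At 3 months, where Ide also did not overlap, the subfield markers went the other way, at 89.4 to 95.1 scaled TPM in APP and 142 to 156 in WT mice. Oligodendrocyte markers (8 genes) summed to 1650 to 2790 in APP and 1543 to 1643 in WT mice of 3 months. Striatum markers (7 genes) summed to 65.6 to 261.5 in APP and 51.0 to 57.3 in WT mice of that age. Fibroblast markers (5 genes) summed to 18.3 to 34.6 in APP and 36.2 to 41.3 in WT mice of 3 months.

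The genes beside Ide on chromosome 19 were read in the same fit, chosen after the values of Ide were seen. Within 500000 bases 8 genes were tested, Ide included, and of the others Btaf1 (36926079 to 37012752), a TATA-binding protein associated factor, was also called higher at 6 months, by 0.66 ± 0.12 (limma adjusted p = 0.0127). It was at 20.2, 22.7 and 23.2 scaled TPM in APP and 12.6, 14.6 and 13.3 in WT mice. Its adjusted p was 0.0576 with APP replicate 2 left out, 0.0625 with APP replicate 3 left out, 0.0639 with WT replicate 1 left out, and 0.0750 with only the 2 groups in the fit. Cpeb3, between Btaf1 and Ide, was at a change of 0.60 ± 0.17 (adjusted p = 0.0789), Fgfbp3 at 0.35 ± 0.19, March5, which lies next to Ide, at -0.12 ± 0.12 and Rpl10-ps6, inside Ide, at -0.52 ± 0.18. Tnks2 was at 0.05 ± 0.10 and Exoc6 at -0.34 ± 0.15. These are RNA values, and whether the DNA of this region, its copy number included, differs between these mice was not tested. Over the 17 libraries Btaf1 was the gene most like Ide of 7829 genes with a mean of at least 10 TPM, with a Pearson r of log2 values of 0.873, followed by Dicer1 (0.79) and Sash1 (0.784). These libraries share their scaling, and r is given as a description. The 5 libraries highest in Ide were the 5 highest in Btaf1, and they are the 3 APP mice of 6 months, APP replicate 2 of 12 months and APP replicate 1 of 3 months.

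**Figure D2:**
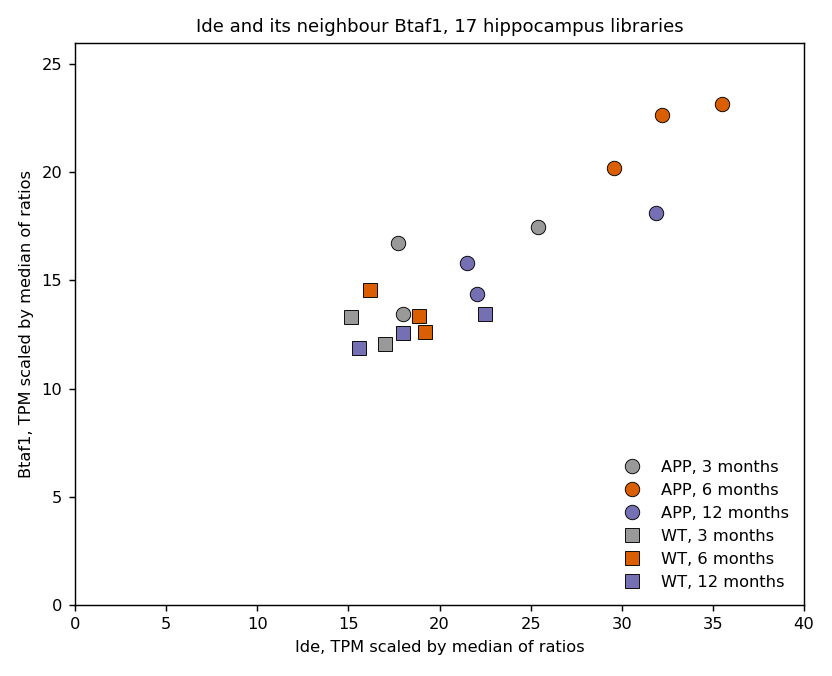
Scaled TPM of Ide (horizontal axis) and of its neighbour Btaf1 (vertical axis) in each of the 17 hippocampus libraries, with circles for APP, squares for WT and colours for age. The 3 APP mice of 6 months are at 29.6 to 35.5 for Ide and 20.2 to 23.2 for Btaf1, above all WT mice in both.

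Mme moved the other way at 6 months without passing the threshold. It was at 1.16, 1.60 and 2.32 scaled TPM in APP mice and 4.72, 3.40 and 4.40 in WT mice, without overlap, for a change of -0.96 ± 0.29 (limma adjusted p = 0.0998). At 3 months the change was 0.63 ± 0.32 (limma adjusted p = 0.428), with 4.49, 5.73 and 1.95 in APP and 1.74 and 2.50 in WT mice. It was 0.38 without APP replicate 2 and 0.97 without APP replicate 3. At 12 months it was at 3.53, 2.14 and 2.34 in APP and 1.43, 3.01 and 2.55 in WT mice, which overlap. The genotype by age interaction of Mme was not called (limma F test, adjusted p = 0.14), but was at 0.0416 without APP replicate 3 of 3 months, the one low APP mouse of that age. Over all settings tried that adjusted p ran from 0.0416 to 0.264.

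The log2 ratio of Ide to Mme, read within each library, gives both peptidases at once. It was 4.32 ± 0.37 in APP and 2.13 ± 0.11 in WT mice at 6 months (SD, n = 3 each), 2.45 ± 0.77 and 2.95 ± 0.25 at 3 months, and 3.25 ± 0.63 and 3.06 ± 0.65 at 12 months. The differences were 2.19 at 6 months, -0.50 at 3 months and 0.19 at 12 months. Averaged within ages the ratio was 0.63 higher in APP mice (two-sided exact permutation test, p = 0.126, adjusted over 7 ratio tests 0.295). A permutation test of 3 against 3 mice at 1 age cannot go below 0.10, so the 6-month difference was not tested alone.

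On TPM as deposited the 6-month picture changed for nearly all genes, these 9 included. Of the 9, 8 were called higher and Mme was not called, where 58% of all genes were called and the median change of all genes was 0.60. The changes were 0.70 for App, 0.67 for Aplp1, 0.99 for Aplp2, 0.57 for Bace1, 0.80 for Psen2, 0.75 for Ncstn and 0.72 for Adam10, so all of these lie between 0.57 and 0.99. At 3 and 12 months 0 of 9 were called on TPM, with 0.398% and 0.639% of all genes called. The interaction called 7 of 9 on TPM (33.1% of all genes) and 0 of 9 on scaled TPM (0.437%). The 7 on TPM fell to 0 without WT replicate 2 of 3 months, to 2 without APP replicate 3 or WT replicate 1 or 2 of 6 months, and to 4 without APP replicate 1 of 6 months.

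**Figure D3:**
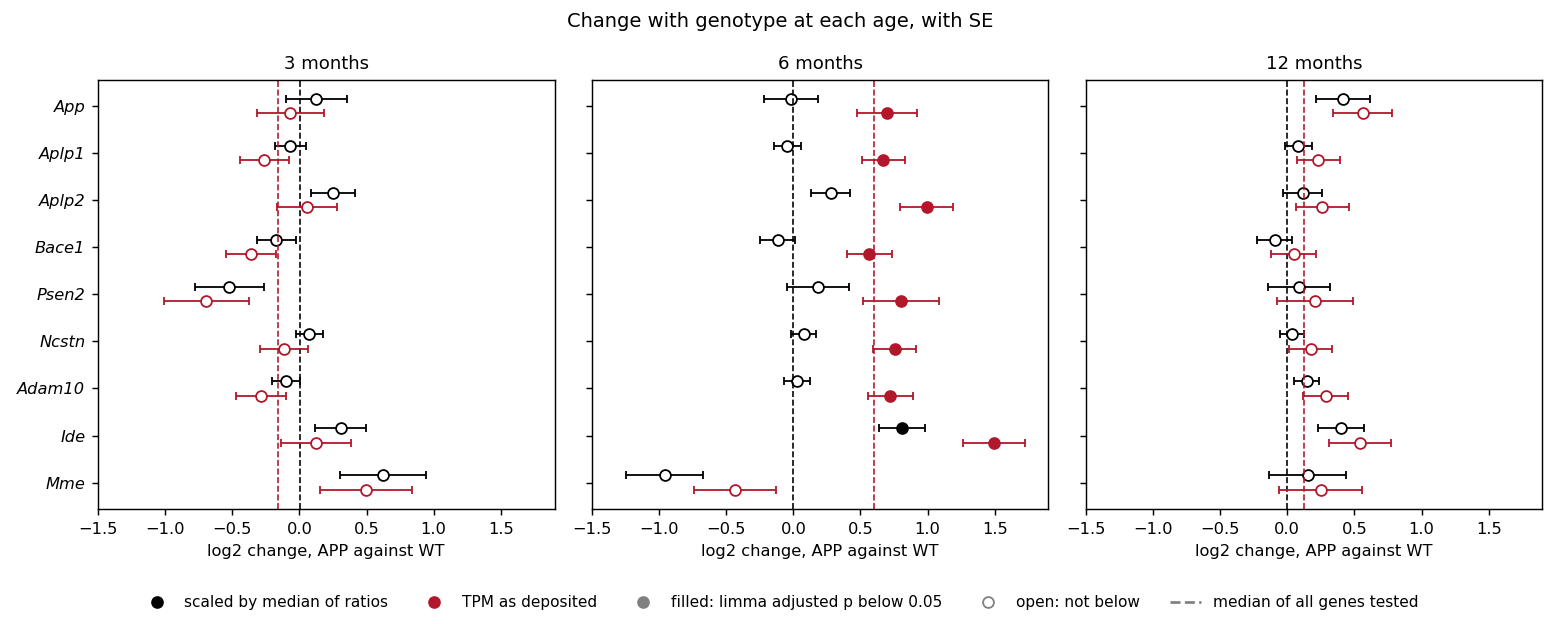
Log2 change of each gene in APP against WT mice at 3, 6 and 12 months (horizontal axis, log2 of value + 1), with bars for the SE, black for scaled TPM and red for TPM as deposited, filled where the limma adjusted p was below 0.05. The dashed lines mark the median of all genes tested, which is at 0.60 for TPM at 6 months, where 8 of the 9 red points are filled and Ide alone is filled in black.

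Between 3 and 12 months, the only ages compared within a genotype, none of the 9 genes was called in either genotype. In APP mice at 12 against 3 months 3.28% of all genes were called on scaled TPM and 1.6% on TPM as deposited, and in WT mice 0.0617% and 0.118%. Aplp2 had the lowest adjusted p in APP mice, at a change of -0.32 ± 0.15 (limma adjusted p = 0.297), and at -0.13 without the 3-month library high in other cell types. In WT mice the range over the 9 genes was from -0.35 ± 0.26 for Psen2 to 0.19 ± 0.19 for Ide. The lowest adjusted p in WT mice was that of Bace1, at a change of -0.34 ± 0.14 (limma adjusted p = 0.564), against -0.26 ± 0.13 in APP mice. Only 2 WT mice of 3 months were measured. On TPM as deposited 2 of the 9 genes were called in WT mice when replicate 3 of 12 months was left out.

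Among 36 other genes of the pathway, 32 were tested in hippocampus, in lists of other secretase subunits, adaptor and trafficking genes, and clearance genes. Apbb3 was not analysed here. At 3 and 6 months 0 of 32 were called on scaled TPM, with a median change of 0.01 and 0.04. At 12 months 2 of 32 were called (0.443% of all genes), both higher and both lysosomal cathepsins of the clearance list, and the median was 0.12. Ctsd, an aspartic protease, was at 351, 298 and 358 scaled TPM in APP and 129.4, 125 and 111 in WT mice, a change of 1.45 ± 0.19 (limma adjusted p = 0.00271). Ctsb, a cysteine protease, was at 131, 116 and 120.4 against 84.8, 89.0 and 84.9, a change of 0.50 ± 0.08 (limma adjusted p = 0.00998), which was lost when APP replicate 1 (0.0969), APP replicate 3 (0.0536), WT replicate 1 (0.0543) or WT replicate 3 (0.0531) was left out. In both genes each APP mouse was above each WT mouse.

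Other markers separated the genotypes at the same age. The 8 microglia markers summed to 287 to 348 scaled TPM in APP and 136 to 157 in WT mice of 12 months, and the 7 astrocyte markers to 1034 to 1169 and 654 to 675. The 8 choroid plexus markers summed to 1451 to 1673 in APP and 426 to 1321 in WT mice, and the 8 oligodendrocyte markers to 1187 to 1316 and 1053 to 1096. All of these markers were above 1 TPM in both groups. Their part in the cathepsin result was not tested. Ctsd also passed the interaction (limma F test, adjusted p = 0.0355) and the comparison of APP mice at 12 against 3 months (1.3 ± 0.19, limma adjusted p = 0.00294), as the 1 of 32 called in each (0.437% and 3.28% of all genes). The interaction cannot be told apart from sex in these mice. In WT mice at 12 against 3 months 0 of 32 were called. On TPM as deposited 25 of 32 were called higher at 6 months, where 58% of all genes were called, and 2 of 32 at 12 months (0.639% of all genes).

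The genes whose levels ran most like App over the 17 hippocampus libraries, among 7829 with a mean of at least 10 TPM, were Tmcc3 (Pearson r of log2 scaled values 0.738), Slc39a7 (0.708) and Fth1 (0.692). For Mme they were Cbr1 (0.81), Prps1l3 (0.809) and Hdlbp (0.798). These are descriptions over libraries that share tissue and scaling.

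HT-22 cells differed from hippocampus in which of these genes they listed. The label calls the line hippocampal, but 4 of 8 neuron markers were at 0 in all 14 libraries, Snap25 among them, and only Tubb3 reached a mean of 1 TPM. Of 5 fibroblast-type collagen and matrix markers 4 did, and these 5 genes summed to 1693 to 4991 TPM against 18.6 to 74.7 in hippocampus. The levels below are therefore those of the HT-22 line rather than of neurons.

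Aplp1, the highest of the 9 genes in hippocampus, was listed at 0 in all 14 HT-22 libraries. Mme was listed at 0 in 11 of 14 and at 0.0558 to 0.0699 TPM in the other 3, against 1.23 to 5.84 in hippocampus. App was at 58.3 to 154.8 TPM (mean 103.6 ± 27.5) against 156.6 to 424 in hippocampus, a mean 2.63 times lower. For these 3 genes the 17 and the 14 libraries did not overlap, as for 46% of 19596 genes on the same count.

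For the other 6 genes the libraries overlapped. Aplp2 led in HT-22, at 172.9 ± 39.5 TPM (SD, n = 14), and was above App in every library. Adam10 was at 64.6 ± 14.1, Ide at 49.5 ± 10.1 and Ncstn at 27.9 ± 5.36, which is 2.11, 2.13 and 1.4 times their hippocampus means. Rpl10-ps6, inside Ide, had a mean of 166.2 TPM in HT-22 against 31.9 in hippocampus. Copa, on the other strand of Ncstn, was at 129.3 against 75.4. The part of these overlapping genes in the Ide and Ncstn values was not tested. Bace1 was at 13.6 ± 3.22 and Psen2 at 1.93 ± 0.956, which is 1.75 and 3.42 times lower. The steps from Aplp2 down to Psen2 were each larger than the spread and held in all 14 libraries. These 2 systems were not tested against each other, since tissue, preparation and time differ with them.

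**Figure D4:**
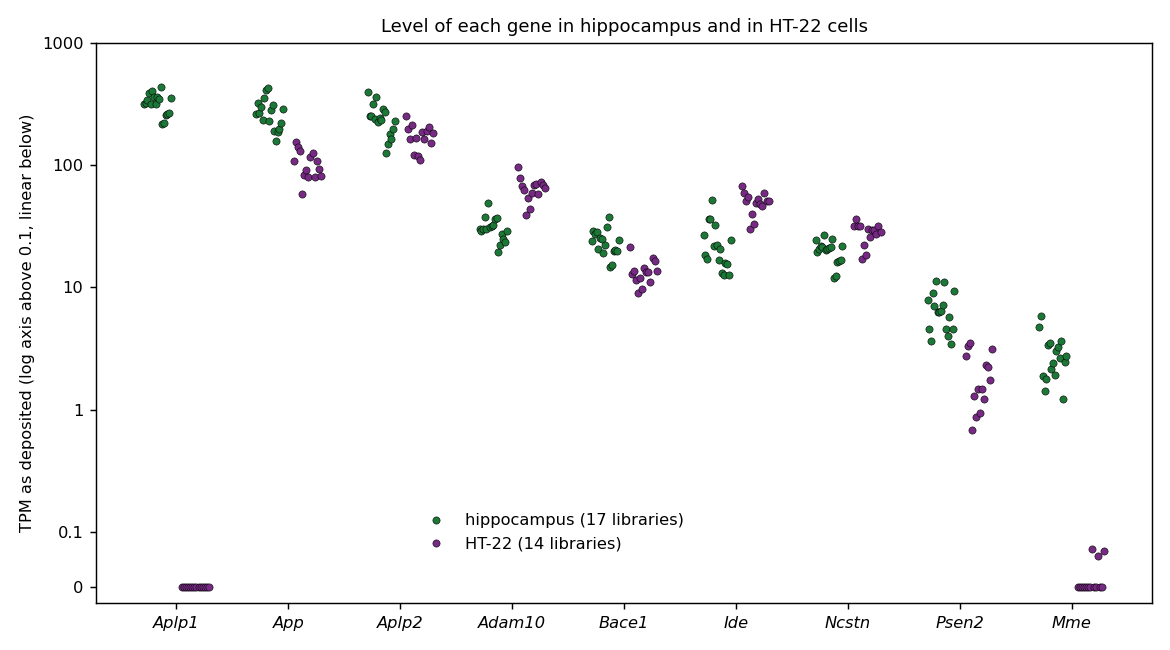
TPM as deposited of each gene in the 17 hippocampus libraries (green) and the 14 HT-22 libraries (purple), on an axis that is logarithmic above 0.1 and linear below it, with genes in order of their hippocampus mean. Aplp1 lies at 0 in all HT-22 libraries and Mme in 11 of 14, while Adam10, Ide and Ncstn have higher means in HT-22.

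The promoters of the pair at the ends of this order, Aplp1 (listed at 0) and Aplp2 (highest in HT-22), are shown because the paralogs differ so much in 1 line. They are RefSeq sequences on GRCm38.p6 of 300 bases around a transcript start, at chr7:30445533-30445832 and chr9:31211799-31212098, both on the minus strand, and 8 of the 9 genes (all but Bace1) matched that table. Capitals mark the letters GGGCGG, searched on both strands, where a match on the other strand reads CCGCCC.
Aplp1 promoter: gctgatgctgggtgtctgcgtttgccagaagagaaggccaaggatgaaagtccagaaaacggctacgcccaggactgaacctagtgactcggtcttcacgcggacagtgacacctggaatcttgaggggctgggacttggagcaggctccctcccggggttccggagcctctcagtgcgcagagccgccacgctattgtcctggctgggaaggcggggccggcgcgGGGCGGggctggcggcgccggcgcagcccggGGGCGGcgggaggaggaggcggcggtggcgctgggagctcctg
Aplp2 promoter: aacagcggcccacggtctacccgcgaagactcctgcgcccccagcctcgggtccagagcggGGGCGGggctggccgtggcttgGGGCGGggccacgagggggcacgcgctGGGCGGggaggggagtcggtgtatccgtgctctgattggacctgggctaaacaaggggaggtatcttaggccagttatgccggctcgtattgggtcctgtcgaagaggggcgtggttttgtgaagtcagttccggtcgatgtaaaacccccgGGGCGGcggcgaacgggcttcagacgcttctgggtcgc
The Aplp1 window holds 2 matches and 26 CpG at 68.7% GC, and the Aplp2 window 4 matches and 29 CpG at 67.0% GC. The App window holds 1 match and 30 CpG at 71.0% GC. Of all 32851 promoter windows of this length 35.7% hold the motif, and their median is 7 CpG and 52.7% GC. A match is a description of the letters and not a bound site.

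In HT-22 the comparison addressed whether Ab42 changed these genes, and whether LNA against Hsf1 altered that. Hsf1 itself was at 43.3 to 51.4 scaled TPM in libraries labelled Ab42 with anti-Hsf1 and 49.0 to 71.3 with scramble, and at 43.1 to 52.6 with anti-Hsf1 and 43.2 to 61.9 with scramble under the reverse peptide. These groups overlap, and the change was not called under either peptide (-0.37 and -0.15, limma adjusted p = 0.521 and 0.959). On TPM as deposited Hsf1 was called lower with anti-Hsf1 under Ab42, where 50.7% of all genes were called. The libraries are therefore named by their labels. Of the 9 genes 7 passed the filter of a mean of 1 TPM, and Aplp1 and Mme did not.

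On scaled TPM 0 of 7 genes were called in each of the 5 HT-22 comparisons. The share of all 17291 tested genes called by limma was 0% for Ab42 against reverse peptide under scramble (866 genes at an unadjusted p under 0.05), 0% under anti-Hsf1 (794), 0% for anti-Hsf1 against scramble under reverse peptide (628), 0.0231% under Ab42 and 0% for the interaction (899). Groups did not overlap in 0 of 7, 1 of 7, 0 of 7 and 0 of 7 genes in the first 4, where 2.35%, 18.3%, 5.97% and 8.52% of all genes did not. That 1 gene was Aplp2 under anti-Hsf1, at 189, 194 and 182 scaled TPM with Ab42 and 180.3, 142 and 179 with reverse peptide.

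App was higher on average with Ab42 by less than the spread. Under scramble it was at 88.0, 136, 117 and 117 scaled TPM with Ab42 and 79.0, 116, 111 and 77.0 with reverse peptide, a change of 0.26 ± 0.18 (limma adjusted p = 0.952). Under anti-Hsf1 it was at 91.2, 96.7 and 137 against 94.4, 87.4 and 80.3, a change of 0.29 ± 0.20 (limma adjusted p = 1). Without the 3 scramble libraries that stand apart, a setting chosen after the data were seen, the first change was 0.12 (limma adjusted p = 0.938). Psen2 was at a mean of 1.93 TPM in this line and spread from 0.606 to 3.08 scaled TPM, and its change with Ab42 was 0.33 ± 0.31 under scramble (0.72 without those 3 libraries, limma adjusted p = 0.641) and -0.24 ± 0.36 under anti-Hsf1.

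Ide, Ncstn and Adam10 varied least of the 7 genes. Over all 14 libraries Ide stayed between 42.3 and 54.7 scaled TPM, Ncstn between 24.2 and 31.5 and Adam10 between 55.5 and 77.9. Bace1 was at 10.3 to 17.4 with scramble and 13.4 to 15.5 with anti-Hsf1, and its change with anti-Hsf1 under Ab42 was 0.21 ± 0.17 (limma adjusted p = 0.642), or 0.03 without the 3 libraries that stand apart, which had 10.3 to 11.2. The log2 ratio of Adam10 to Bace1 was 2.30 ± 0.17 and 2.38 ± 0.19 with scramble under reverse peptide and Ab42 (SD, n = 4 each) and 2.13 ± 0.12 and 2.15 ± 0.04 with anti-Hsf1 (n = 3 each). It was 0.20 lower with anti-Hsf1 within peptides (two-sided exact permutation test, p = 0.0343), which did not pass over the 7 ratio tests (adjusted p = 0.24).

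**Figure D5:**
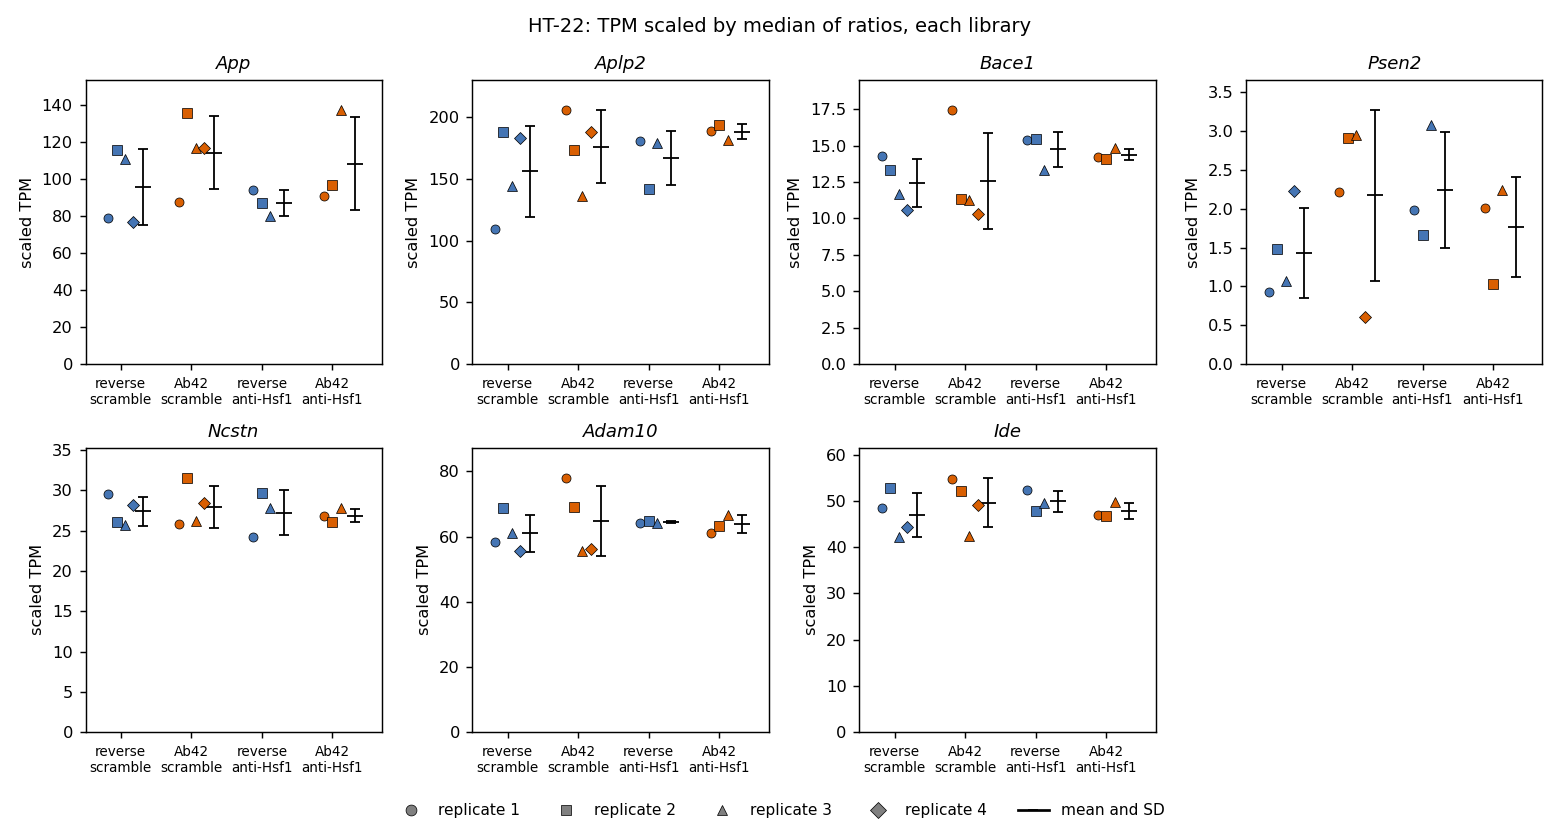
Scaled TPM (vertical axis, from 0) of the 7 genes above a mean of 1 TPM in each HT-22 library, by peptide and LNA, with orange points for Ab42, blue points for the reverse peptide and black bars for the mean and SD. The groups overlap for each gene, except that Aplp2 with Ab42 lies just above reverse peptide under anti-Hsf1.

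On TPM as deposited the group given Ab42 with anti-Hsf1 was lower in most genes. Against reverse peptide 3 of 7 were called lower (Ncstn at -0.58, Adam10 at -0.60 and Ide at -0.64), where 24.3% of all genes were called and the median of all genes was -0.52. Against scramble 5 of 7 were called lower (App at -0.80, Aplp2 at -0.60, Ncstn at -0.75, Adam10 at -0.72 and Ide at -0.75), where 50.7% were called and the median was -0.62. The interaction called 3 of 7 (Ncstn, Adam10 and Ide, lower), with 25.3% of all genes. The count against reverse peptide fell to 0 without Ab42 replicate 1 or 3 or reverse peptide replicate 1 or 2 of the anti-Hsf1 groups, and to 2 without reverse peptide replicate 3. That of the interaction was 1 without Ab42 and anti-Hsf1 replicate 1, 2 without replicate 3 of that group or without replicate 1 of reverse peptide and anti-Hsf1, and 5 without Ab42 and anti-Hsf1 replicate 2. The remaining 2 comparisons called 0 of 7 and 0% of all genes on TPM, with 1489 and 468 genes at an unadjusted limma p under 0.05.

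The other pathway genes gave 0 calls of 26 tested in each of the 5 HT-22 comparisons on scaled TPM, with medians of the change from -0.03 to 0.14. Over the 14 libraries the gene most like App among 9493 was Alg2 (Pearson r of log2 scaled values 0.804), again as a description.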

How the data were processed

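Long RNA was measured in 17 hippocampus and 14 HT-22 libraries, made after fragmentation and ribosomal RNA depletion, per the labels' protocols. The authors deposited 1 gene abundance table per library with Coverage (a signal, mean read depth), FPKM and TPM, per the file headers, and TPM summed to 999823 to 999917. The submitters' processing notes name FastQC, cutadapt 1.18, HISAT2 2.1.0, StringTie 1.3.4d, BWA 0.7.17, bedtools 2.26.0 and the builds mm10 and GRCm38, without saying which step used which. Values of a gene ID listed on several rows were summed. These units are not counts, so no count model was run, and the short-RNA libraries were not used.

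The 9 genes, the other lists and the tests were chosen with earlier results of these data known. TPM was scaled by median of ratios and tested with limma 3.58.1 (R 4.3.3; trend, robust) on log2(scaled TPM + 1), for genes averaging 1 TPM or more, in 1 fit of 6 mouse groups and 1 of 4 HT-22 groups, with Benjamini-Hochberg adjustment over all genes tested and a threshold of 0.05. Groups came from the labels, and p-values measure the spread between mice or HT-22 libraries. Tested on simulated data, the fit recovered 84% of changes of log2 1 at 12 months over 17840 genes, and 65% for Ab42 under scramble over 17291. Those changes were placed only in genes of higher level than Mme, or than Psen2 in HT-22, with noise drawn for each gene alone. The recovery therefore need not hold for such low genes or for noise shared between genes, and 6 months was not simulated. Ratios were tested by exact permutation (Python 3.11.15); the log2 ratio of Ide to Mme could not be formed in HT-22, where Mme is mostly at 0, so 7 and not the intended 9 tests were adjusted together. All 9 genes are named in each comparison, of the other pathway genes the up to 4 called with the largest change, for App and Mme the 3 most correlated genes in hippocampus (in HT-22 the first for App, since the full list is not reported here), and Hsf1 and markers as checks. Ide's neighbours and likeness, exon length and the fit without 3 HT-22 libraries were added after seeing the data. Alternatives were TPM as deposited, quantile normalisation, a pseudocount of 0.1, no filter, only the groups compared, a replicate block and leaving out each library.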

Additional observations from a re-analysis of the deposited data

Results flagged for a closer look

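In 15 groups of 4 HT-22 libraries with values above 0, a library far from the other 3 of its group was looked for, which chance gives in about 1 of 20 groups. Ncstn in the cells given Ab42 and scramble was at 35.91 TPM in replicate 2, with the others at 31.6 to 31.9. Ncstn in the cells given reverse peptide and scramble was at 25.99 TPM in replicate 2, with the others at 29.3 to 29.9. Both are values of TPM as deposited. On scaled TPM Ncstn ran from 25.8 to 31.5 with Ab42 and scramble, and from 25.7 to 29.6 with reverse peptide and scramble.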

How the results depend on the processing

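On TPM as deposited the number of the 9 genes called was 8 at 6 months and 7 for the genotype by age interaction, and in HT-22 it was 3 for Ab42 against reverse peptide under anti-Hsf1, 5 for anti-Hsf1 against scramble under Ab42 and 3 for the interaction of peptide and LNA. Leaving out each library in turn on TPM gave 6 to 8 at 6 months and 0 to 7 for the genotype by age interaction. On scaled TPM the count at 6 months was 0 with no filter on low values and 0 with only the groups compared. It was 0 to 1 when each library was left out in turn, and the same for the genotype by age interaction on scaled TPM. With a replicate block on scaled TPM, 1 gene was called at 6 months (Ide, limma adjusted p = 0.0461), and no other count changed. The replicate numbers were not treated as pairs in the main fit. Deviations of same-numbered libraries correlated at -0.236 to 0.228 (mean -0.003) in mouse and -0.319 to 0.718 (mean 0.045) in HT-22. For libraries of other numbers the range was -0.284 to 0.324 (mean 0.001) and -0.695 to 0.677 (mean -0.016). The change of App at 6 months, near 0, was 0.70 on TPM, 0.17 with quantile normalisation and -0.12 to 0.11 when each library was left out. On TPM the change of App for Ab42 against reverse peptide under anti-Hsf1 was -0.30, that of Ide in WT mice with age -0.13 and that of Bace1 with anti-Hsf1 under Ab42 -0.46. Leaving out each library, the change of Mme at 12 months ranged from -0.059 to 0.30, that of Psen2 with anti-Hsf1 under Ab42 from -0.44 to 0.064, and that of the App percentage with Ab42 from -0.117 points (without replicate 3 of Ab42 and anti-Hsf1) to 3.18. The cause was not tested. The number of reads behind each value is unknown, so the precision of low genes (Psen2, Mme) rests on the spread between libraries alone.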
